A study of Mus musculus with 8 samples.

Results

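The genes described here are 202 protein coding genes of the ascending aorta that were moderately expressed and whose level was higher in every library from mice given DT-061 than in every library from mice given vehicle. They were taken from a deposited table of 1329 genes whose name calls them significant between the groups. Expression was in FPKM (fragment counts divided by gene length and library size), and a gene was kept if GENCODE M21 called it protein coding, its mean over the 8 libraries was at least 5 and under 50 FPKM, and its lowest DT-061 value was above its highest vehicle value. Of the 1329 genes, 1216 were protein coding and 514 of these lay between the bounds. In that range 220 genes (42.8%) were higher without overlap, and 18 of them, chosen by name, were left out. The names that the rule leaves out are solute carriers and listed genes of signalling, phosphatase, channel, matrix and other groups. Over the whole table, 400 genes (30.1%) were higher with no overlap between the groups and 641 (48.2%) were lower with none. Because the values chose the genes, their difference between the groups is a description, and no test of it is given.

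All 8 libraries came from Fbn1 mgR/mgR mice, which make too little fibrillin-1, a protein of elastic fibre microfibrils that is mutated in Marfan syndrome. Of these, 4 libraries were from mice dosed by mouth with 5 mg/kg of DT-061, 2 doses each day over 4 weeks, begun when the mice were 5 weeks old, and 4 from mice that received the carrier (vehicle) in the same way. No library of mice with normal Fbn1 was analysed here, so the values do not say how the mutation itself moves a gene. The labels do not say that each library is a separate mouse, and the spread between libraries may in part be technical. In whole tissue, fewer cells of a type and less RNA per cell cannot be told apart.

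DT-061 is a small molecule that activates protein phosphatase 2A, an enzyme that removes phosphate from many signalling proteins. The ascending aorta is an elastic artery whose middle layer is made of smooth muscle cells between sheets of elastin, with endothelial cells inside and fibroblasts, nerves and immune cells outside. Contractile smooth muscle genes are among the most abundant in this tissue and are known to depend on serum response factor, which binds the CArG box, and in part on the MEF2 proteins, which bind the MEF2 box. The genes below lie under that abundant layer and hold receptors, kinases, transcription factors and enzymes.

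Promoter windows are shown first because the 202 genes are a mixed set, and a shared sequence is one of the few features on which they can be set side by side without using their expression. RefSeq on GRCm38.p6 gave windows of 250 bases before to 50 after a transcription start for 161 of the 202 genes. These genes had 224 windows, and a gene was counted if any of its windows held the motif. All 17491 coding genes with a window had 21262. On either strand, the MEF2 box was found in 4 of the 161 genes (2.48%), in 1.14% of the genes of the same expression range that were lower without overlap, in 0 of the 65 more abundant genes that were higher without overlap, and in 0.583% of all protein coding genes with a window. The 4 genes were Synpo2 (an actin-binding protein of smooth and striated muscle), Speg (a muscle kinase), Tcea3 (a transcription elongation factor) and Hdac5 (a histone deacetylase known to bind MEF2 proteins). The CArG box was found in 1 of the 161 (0.621%), Inafm2, in 0.571% of the lower genes of the same range, in 4.62% of the more abundant higher genes and in 1.76% of all genes. A match is a description of letters in a window. In the sequences below, written 5′ to 3′ on the gene's strand, capitals mark the box.

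Synpo2 (MEF2 box, bases -236 to -227 from the start, chr3:123236336-123236399, minus strand): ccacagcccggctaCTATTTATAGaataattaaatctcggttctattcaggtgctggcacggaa
Speg (MEF2 box, bases -51 to -42, chr1:75375206-75375295, plus strand): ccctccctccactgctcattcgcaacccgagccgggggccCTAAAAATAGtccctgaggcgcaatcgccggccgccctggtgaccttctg
Tcea3 (MEF2 box, bases -67 to -58, chr4:136247850-136247939, plus strand): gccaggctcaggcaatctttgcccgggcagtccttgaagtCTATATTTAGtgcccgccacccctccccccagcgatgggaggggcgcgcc
Hdac5 (MEF2 box, bases -20 to -11, chr11:102230173-102230232, minus strand): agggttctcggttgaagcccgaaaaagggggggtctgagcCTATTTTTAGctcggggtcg
Inafm2 (CArG box, bases -75 to -66, chr2:118745643-118745732, plus strand): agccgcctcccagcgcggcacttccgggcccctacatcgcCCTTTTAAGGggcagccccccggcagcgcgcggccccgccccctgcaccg

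These 5 genes, apart from Hdac5, were chosen for their promoter after values were seen. Per-library values are given throughout in the order of libraries 1 to 4. Synpo2 read 44.8, 42.96, 52.9 and 44.2 FPKM with DT-061 and 29.3, 32.3, 29.4 and 26.6 with vehicle, a ratio of group means of 1.57. Speg read 34.1, 33.3, 62.6 and 35.7 FPKM with DT-061 and 21.5, 30.5, 19.8 and 29.9 with vehicle, and its ratio of 1.63 was 1.35 without DT-061 library 3. The other boxed genes, Tcea3, Inafm2 and Hdac5, had ratios of 1.47, 1.41 and 1.32. In Synpo2, TATAAA lies inside its MEF2 box on the other strand.

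Of the other motifs searched on both strands, GGGCGG, the binding sequence of Sp1, was in 77.0% of the 161 genes, in 65.7% of the lower genes of the same range, in 66.2% of the more abundant higher genes and in 49.2% of all genes. Counted by window in place of gene, which takes out the differing number of windows, these shares were 65.62%, 59.15%, 60.92% and 46.2%. CACGTG, an E-box, was in 7.45%, 15.4%, 6.15% and 8.91% of the genes of the same 4 sets. TATAAA was in 11.2%, 7.43%, 12.3% and 14.8%. TGACGTCA, bound by CREB, was in 3.11%, 2.29%, 4.62% and 2.54%, and the NRF1 motif was in 3.11%, 2.29%, 1.54% and 1.47%. The windows themselves differed in composition, with a median GC content of 62.0% in the 161 genes, 59.7% in the lower genes, 59.3% in the more abundant higher genes and 56.3% in all.

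The libraries differed in more than these genes, and those values belong beside everything that follows. Depth was 14100000 to 22200000 fragments, and a typical gene of the 202 had a median of 1219 fragments per library, for which counting error alone gives a coefficient of variation of 2.87%. T and NK cell markers (17 of 25 listed genes were in the table) summed to 4.05 to 11.3 FPKM in the DT-061 libraries and 9.82 to 99.0 in vehicle. Of the other immune lists, monocyte and macrophage markers (7 of 26) summed to 34 to 138 against 143 to 564, B and plasma cell markers (6 of 18) to 71.3 to 126 against 202 to 4320, and neutrophil and mast cell markers (3 of 19, with S100a9 at 0 in DT-061 library 3 and vehicle library 4) to 0.569 to 2.46 against 1.46 to 24.8. Vehicle library 4 had the lowest vehicle value in all 4 immune lists. Endothelial markers (3 of 25) summed to 19.4 to 26.8 against 30.3 to 69.0, adipocyte markers (2 of 20) to 74.1 to 335 against 498 to 1420, and fibroblast markers (5 of 23) to 993 to 1170 against 934 to 1140. Of the 5 fibroblast markers, Gsn, the most abundant, rose (694 to 983 against 497 to 628 FPKM), and Sfrp4, Lum, Cthrc1 and Ly6a fell (limma, adjusted p under 0.05). Schwann cell and neuron markers (2 of 23, Uchl1 and Tubb3) summed to 114 to 126 against 84.1 to 114, and chondrocyte-like markers (3 of 18) to 143 to 273 against 131 to 288. Members of both lists went opposite ways. Uchl1 rose (112 to 124 against 79.4 to 106) and Tubb3 fell (0.627 to 1.71 against 4.05 to 8.24). Cytl1 rose (97.4 to 254 against 50.8 to 74.6), and Comp (19.2 to 58.6 against 55.7 to 221) and Col11a1 fell. Smooth muscle markers (12 of 27, among them Acta2, Tagln and Myh11) summed to 16600 to 24900 against 9070 to 14300, with the highest sum in DT-061 library 3. No cardiac, skeletal muscle, erythroid or mesothelial marker was in the table, and these were not analysed here. Only Pgm5 and Synpo2 of the 202 genes were themselves markers, both of smooth muscle.

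Relative to each gene's vehicle mean, the median level was 1.314, 1.254, 1.503 and 1.305 in DT-061 libraries 1 to 4 and 0.969, 1.03, 0.982 and 1.02 in vehicle libraries 1 to 4, a separation that the rule fixed. Vehicle library 4 was above the mean of the other 3 vehicle libraries in 117 of the 202 genes, and without it the median ratio was 1.40 in place of 1.38. As a share of all fragments, the 202 genes took 2.63% to 3.24% in DT-061 libraries and 1.98% to 2.16% in vehicle. The genes of the table that were lower on the means took 1.80% to 2.74% and 3.53% to 7.88%. Whether the smaller share of the lower genes raised the FPKM of the rest was not tested, nor was the part of cell composition.

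**Figure D1:**
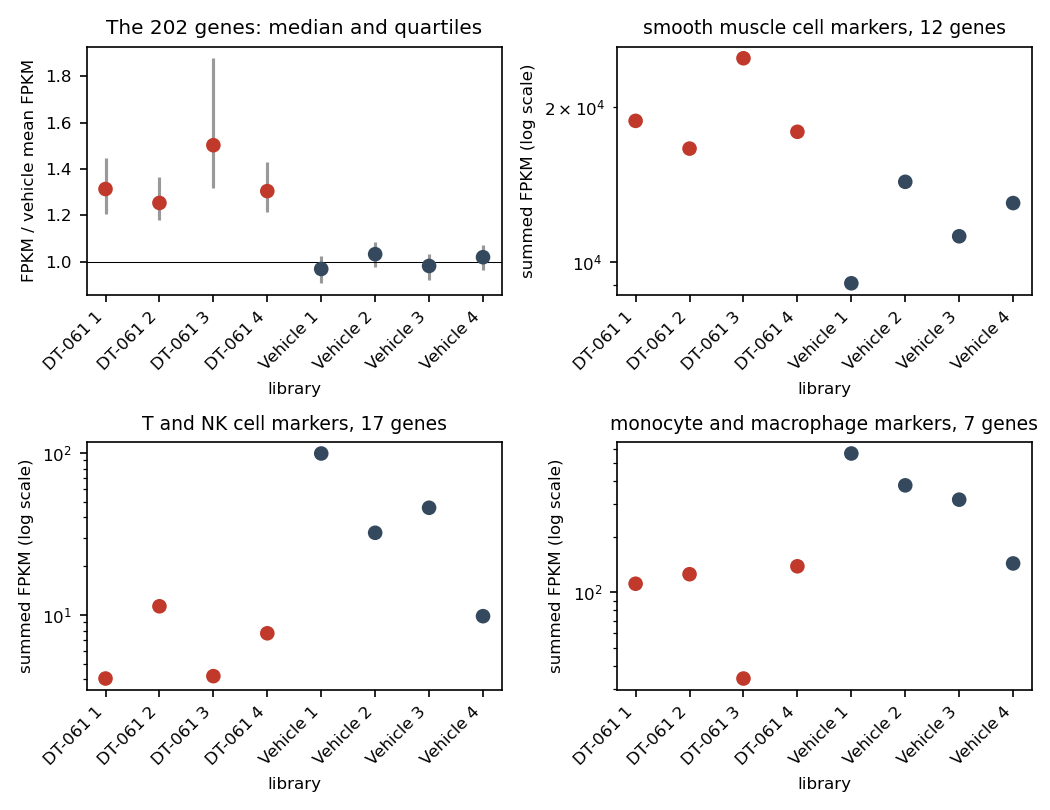
Values by library, DT-061 in red and vehicle in blue. The top left panel gives the median and quartiles of FPKM over the vehicle mean for the 202 genes, and the others give the summed FPKM of 12 smooth muscle, 17 T and NK cell and 7 monocyte and macrophage markers on log axes. The 202 genes have medians of 1.254 to 1.503 in DT-061 libraries and 0.969 to 1.03 in vehicle, a separation that the rule fixed. The T and NK cell sum of vehicle library 4 (9.82) lies inside the DT-061 range.

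Differences were modest in size. The ratio of the DT-061 mean to the vehicle mean started at 1.14 and reached 2.345 in the genes described here, with a median of 1.38 over the 202 (quartiles 1.253 and 1.53). Of the 202 genes, 18 had a ratio under 1.2, 125 had 1.2 to under 1.5, 59 had at least 1.5 and 4 had at least 2. The lowest DT-061 value was at least 1.004 times the highest vehicle value, with a median of 1.09, so in most genes the groups were separated by a narrow margin. That margin was under 1.1 in 114 genes and at least 1.2 in 28. Mean levels ran from 5.07 to 49.8 FPKM with a median of 15.4. The 86 more abundant coding genes that were higher without overlap had a median ratio of 1.45, and the 64 under 5 FPKM had 1.58. On the scale of log2(FPKM + 1), the median difference of the 202 was 0.43, beside -0.58 over all 1329 genes.

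**Figure D2:**
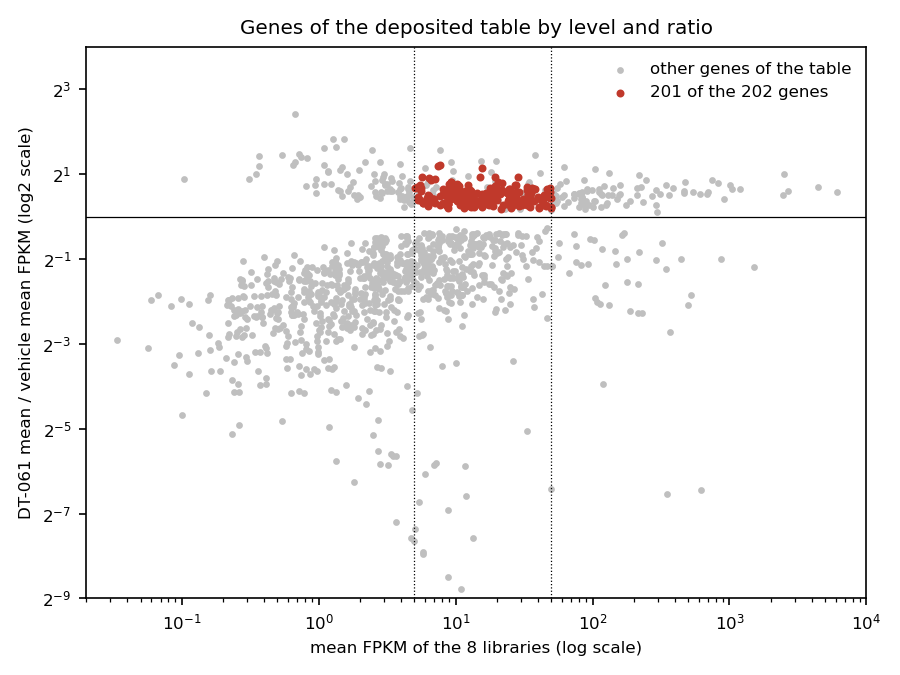
Mean FPKM of the 8 libraries (log scale) against the ratio of DT-061 to vehicle mean FPKM (log2 scale) for the genes of the table with a ratio above 0; dotted lines mark 5 and 50 FPKM. The 201 of the 202 genes that are plotted (red) lie between ratios of 1.14 and 2.345, and the genes on the lower side of the table reach farther from 1 than they do.

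At the edges of the rule, the members with the lowest means were Tmem53 (5.065 FPKM), Bambi (5.276) and Bbs2 (5.227). The genes left just under 5 FPKM were Wdr35 (4.73), Lonrf1 (4.86) and Ttc23 (4.89), with ratios of 1.22, 1.38 and 1.27. At the upper edge Cdc42ep3 (49.50 FPKM), Npr1 (49.77) and Dctn1 (49.78) were inside. Tsen34 (50.04 FPKM), Pdcl3 (50.5) and Hspb2 (50.6) were outside, with ratios of 1.12, 1.24 and 1.39. The smallest margins inside were those of Bbs2, Dctn6 and Fam122a, whose lowest DT-061 value was 1.004, 1.004 and 1.007 times their highest vehicle value. Just outside on that bound were Wiz at 0.998, with a ratio of 1.21, and Csdc2 at 0.997, with a larger ratio of 2.45. In the same range, 17 coding genes were higher on the means with overlapping groups.

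DT-061 library 3 stood apart from the other DT-061 libraries. It was the highest of the 4 in 146 of the 202 genes, beside 20, 7 and 29 for libraries 1, 2 and 4, and in 317 of the 435 table genes that were higher on the means. In 34 genes library 3 was at least 1.5 times the mean of the other DT-061 libraries, and these had a median ratio of 1.60 that was 1.34 without it. In 99 genes it was 1.1 to under 1.5 times the others, with a median ratio of 1.33 and 1.26 without it. In the remaining 69 it was under 1.1 times the others, and their median ratio was 1.33 with and 1.34 without it. Without library 3, the median ratio of the 202 was 1.297, 30 genes had a ratio of at least 1.5, and the coefficient of variation within the DT-061 group had a median of 5.30% in place of 11.6%, beside 8.70% in vehicle. Taking out the most extreme library lowers this spread by construction. Across the 202 genes, Spearman's correlation of the excess in library 3 was 0.18 with GC content and -0.09 with exonic length, as a description of genes that share 1 library. Library 3 also had the highest smooth muscle marker sum (24900 FPKM) and the lowest monocyte and macrophage sum (34 FPKM) of the 4, and the part of either in the excess was not tested.

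**Figure D3:**
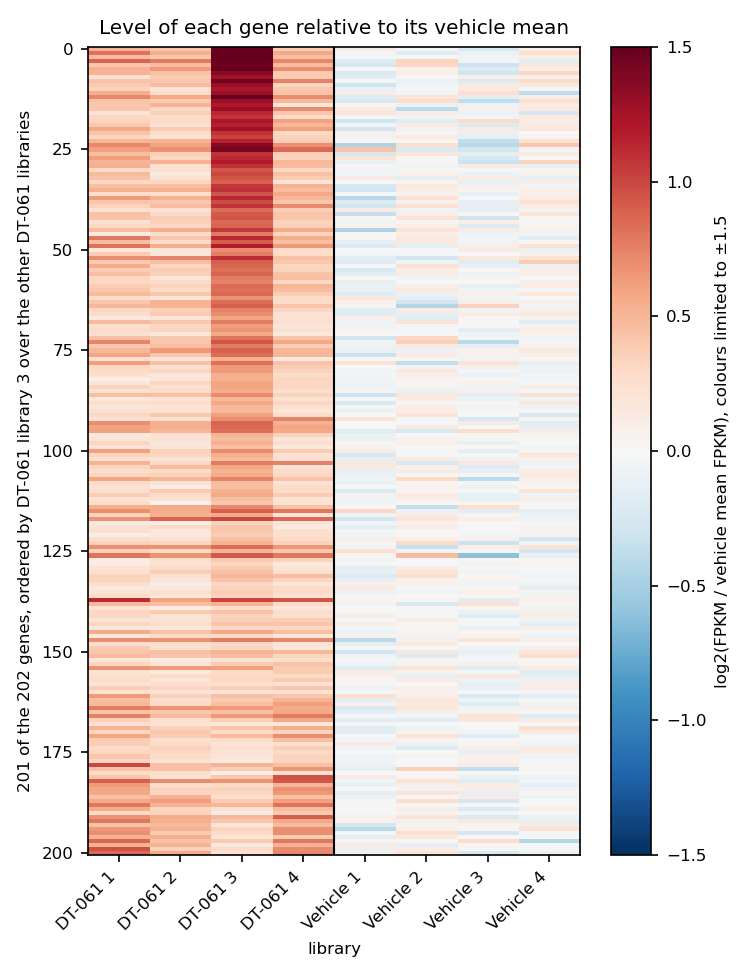
Each row is 1 of 201 of the 202 genes and each column a library; colour is log2 of FPKM over the gene's vehicle mean, limited to 1.5 either way. Rows are ordered by the level in DT-061 library 3 over the other DT-061 libraries, which is at least 1.5 in the top 34 rows and under 1.1 in the bottom 68.

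Genes of fuel use were Phkg1, the catalytic subunit of phosphorylase kinase in glycogen breakdown, and Pgm5, a phosphoglucomutase relative found at muscle adhesion sites. Phkg1 read 11.5, 9.19, 13.3 and 10.4 FPKM with DT-061 and 6.58, 8.88, 5.23 and 7.04 with vehicle. Pgm5 read 61.3, 54.8, 68.8 and 54.7 FPKM with DT-061 and 37.5, 37.3, 41.5 and 34.5 with vehicle. Phkg1 came close to touching, with a margin of 1.03, whereas Pgm5 was well separated at 1.32. Of the 7 genes of the energy list that are in the table but not among the 202, 2 rose and 5 fell (limma, adjusted p under 0.05). In these counts and those below for genes outside the 202, the background over the table was 30.4% rising and 65.0% falling. The rule had already drawn off most rising genes of this expression range, so nothing is read from the lean of the remaining ones.

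Among secreted ligands, Ntf3 encodes neurotrophin-3, a growth factor for sensory and sympathetic neurons. It read 29.03, 20.3, 27.04 and 25.6 FPKM with DT-061 and 13.8, 13.7, 11.9 and 13.9 with vehicle, a ratio of 1.91 with the lowest DT-061 value well above the vehicle values. Its receptor gene Ntrk3 (TrkC) read 28.1, 27.4, 38.96 and 30.8 FPKM with DT-061 and 20.4, 23.2, 19.98 and 23.6 with vehicle, with library 3 the highest, and a ratio of 1.44 (1.32 without it). Ligand and receptor were both higher with DT-061, the ligand by the larger ratio. Gfra4, a co-receptor of the GDNF family, was at 11.5, 11.4, 17.5 and 12.7 FPKM with DT-061 and 10.7, 9.46, 8.92 and 10.2 with vehicle. Sort1 and Sorl1, sorting receptors of the sortilin family of which Sort1 binds neurotrophin precursors, had ratios of 1.27 and 1.56. The other 6 genes of the growth factor and receptor tyrosine kinase list in the table all fell.

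TGF-beta and BMP signalling, a pathway studied in Marfan aortas, gave 3 genes. Inha encodes the inhibin alpha subunit, whose dimers oppose activins, and read 7.51, 8.59, 9.39 and 8.43 FPKM with DT-061 and 3.94, 5.31, 5.04 and 4.47 with vehicle. Its groups were clearly separated, with a ratio of 1.81 and a margin of 1.41. Scube3, a secreted and membrane-bound protein that acts with TGF-beta and BMP receptors, read 59.95, 50.8, 50.6 and 63.7 FPKM with DT-061 and 36.6, 47.1, 37.2 and 41.2 with vehicle. Bambi, a decoy receptor that lacks the kinase domain, read 5.82, 5.43, 5.88 and 6.81 FPKM with DT-061 and 4.11, 4.09, 5.11 and 4.96 with vehicle, with a ratio of 1.31. All 3 ratios changed little without library 3 (1.81 and 1.74 for Inha, 1.39 and 1.44 for Scube3, 1.31 and 1.32 for Bambi). Of the 8 other listed genes of this pathway in the table, 6 rose and 2 fell.

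Ephrins, Eph receptors and plexins guide growing axons and vessels. Efnb2, encoding ephrin-B2, a ligand of arterial cells, read 17.5, 14.6, 13.4 and 15.02 FPKM with DT-061 and 10.6, 9.57, 11.1 and 9.30 with vehicle, highest in library 1. Epha1 read 8.15, 6.76, 21.6 and 6.83 FPKM with DT-061 and 4.53, 4.09, 4.34 and 5.52 with vehicle, so that its ratio of 2.35 was 1.57 without library 3. Ephb6, a receptor without kinase activity, had a ratio of 1.67 and 1.402 without that library. Plxnb1, a semaphorin receptor, read 6.90, 7.10, 8.84 and 6.70 FPKM with DT-061 and 4.94, 5.67, 4.80 and 5.42 with vehicle. Neo1 (neogenin, a receptor for netrins and repulsive guidance molecules), chosen after values were seen, went the other way in library 3, at 32.3, 33.5, 27.02 and 33.2 FPKM with DT-061 and 19.96, 24.7, 24.6 and 26.3 with vehicle. Of the 11 other axon guidance genes in the table, 3 rose and 7 fell.

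**Figure D4:**
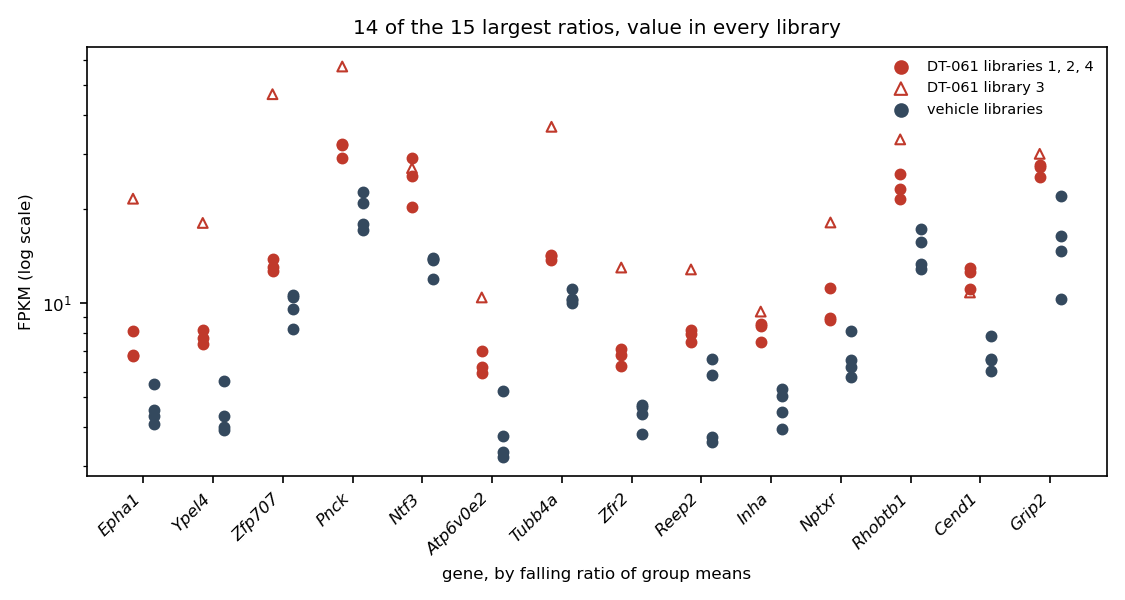
FPKM (log scale) in every library of 14 of the 15 genes with the largest ratios, with DT-061 library 3 as open triangles. Library 3 is the highest in 12 of the 14 and at least 1.5 times the other DT-061 libraries in 9, whereas in Ntf3 and Cend1 it lies within or under them.

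Receptors of other families came next. Npr1, the atrial natriuretic peptide receptor that makes cGMP and relaxes vessels, was among the most abundant at 55.4, 49.8, 57.4 and 51.7 FPKM with DT-061 and 48.4, 48.1, 43.8 and 43.5 with vehicle, and its ratio of 1.17 was among the smallest. Gnao1 (a G protein alpha subunit) read 17.4, 17.6, 25.9 and 16.2 FPKM with DT-061 and 13.8, 14.6, 12.98 and 14.7 with vehicle, with library 3 the highest. Gpr162 (an orphan receptor) had a ratio of 1.33 and Adgra3 (an adhesion receptor) had 1.21. Of the 26 other genes of the G protein list in the table, 3 rose and 20 fell. Cell adhesion gave 3 genes. Ncam1 read 21.4, 21.6, 34.2 and 21.1 FPKM with DT-061 and 13.9, 15.2, 11.97 and 18.9 with vehicle, again highest in library 3. Alcam read 16.9, 17.1, 19.2 and 15.8 FPKM with DT-061 and 11.7, 9.13, 13.8 and 11.9 with vehicle. Itgb3 (integrin beta 3) read 26, 20.8, 19.6 and 25.96 FPKM with DT-061 and 15.8, 19.04, 13.3 and 15.8 with vehicle, where library 3 was the lowest. Of the 24 other adhesion genes in the table, 10 rose and 13 fell.

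Channel genes included subunits best known from neurons. Gabra3, a subunit of the GABA-A receptor, read 31.9, 21.9, 22.9 and 22.1 FPKM with DT-061 and 15.1, 15.9, 17.4 and 15.9 with vehicle, with library 1 standing above the others. Grik5, a kainate receptor subunit, read 23.4, 23.1, 34.5 and 23.3 FPKM with DT-061 and 15.1, 18.2, 16.04 and 20.4 with vehicle. Kcnab1, an accessory subunit of voltage-gated potassium channels, had a ratio of 1.45 (1.301 without library 3), and Ano10 had 1.19. Cacng7, an auxiliary subunit gene of the calcium channel family named after values were seen, had 1.27. Of the 12 other listed channel genes in the table, 4 rose and 6 fell.

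In signalling inside the cell, 4 genes were tied to small GTPases. Rhobtb1, an atypical GTPase, read 25.98, 21.5, 33.4 and 23.1 FPKM with DT-061 and 12.9, 13.3, 15.7 and 17.3 with vehicle. Plekhg3, a guanine nucleotide exchange factor, read 61.9, 51.5, 50.5 and 62.9 FPKM with DT-061 and 35.98, 35.8, 35.9 and 35.8 with vehicle. Its vehicle values had a coefficient of variation of 0.258%, the narrowest vehicle spread of the 202. Cdc42ep3, an effector of Cdc42, read 65.4, 50.5, 51.6 and 60 FPKM with DT-061 and 39.3, 45.1, 45.4 and 38.6 with vehicle, and Arhgap44 had a ratio of 1.22.

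The 4 genes of the kinase signalling list among the 202 were adaptors, scaffolds and phosphatases. Grb14 (an adaptor that inhibits the insulin receptor), Ptprd (a receptor tyrosine phosphatase), Mapk8ip1 (a JNK scaffold) and Inpp4a (a phosphoinositide phosphatase) had ratios of 1.41, 1.51, 1.29 and 1.22. Of the 28 other genes of that list in the table, 3 rose and 24 fell. Because DT-061 acts on protein phosphatase 2A, a list of protein phosphatase subunits and regulators in general was also made. Only Fam122a, an inhibitor of a form of phosphatase 2A, was among the 202. It read 25.6, 23.9, 34 and 26.1 FPKM with DT-061 and 23.8, 19.5, 20.3 and 21.2 with vehicle, and the lowest DT-061 library was almost level with the highest vehicle library. Of the 9 listed phosphatase genes in the table, 8 were higher without overlap and 0 lower, beside 30.1% and 48.2% over the table. The list was written with earlier results of these data known, so nothing is read from this count. Those not among the 202 failed another part of the rule or were left out by name. By limma, 4 of the 8 phosphatase genes other than Fam122a rose and 1 fell. Pnck, a calcium and calmodulin dependent kinase on no list, read 32.3, 29.2, 57.2 and 32.2 FPKM with DT-061 and 17.2, 22.7, 17.8 and 20.8 with vehicle, with a ratio of 1.92 and 1.59 without library 3.

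Of the Wnt, Notch and Hedgehog list, 4 of the 5 genes act where beta-catenin meets DNA. Tcf7l1 read 30.03, 29.5, 30.2 and 33.03 FPKM with DT-061 and 19.9, 23.8, 23.05 and 22.6 with vehicle, with no value near the other group. Tcf7l2 read 7.64, 7.26, 8.83 and 7.76 FPKM with DT-061 and 6.17, 6.45, 5.46 and 5.68 with vehicle. Both encode TCF proteins, which bind DNA and beta-catenin. Bcl9 and Bcl9l, coactivators of beta-catenin, had ratios of 1.32 and 1.25 (the latter named after values were seen). Shisa4 read 38.2, 39.8, 53.97 and 38.4 FPKM with DT-061 and 25.4, 27.5, 25.6 and 37.8 with vehicle, where vehicle library 4 nearly reached the DT-061 range. Of the 11 other genes of that list in the table, 6 rose and 5 fell.

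Transcription factors included 9 of the 25 listed in the table, the 2 TCF genes among them, beside 202 of all 1329 table genes (15.2%) and of the 514 coding genes in the range (39.3%). Prdm6, a transcriptional repressor found in vascular smooth muscle, read 30.9, 28.6, 27.2 and 35.99 FPKM with DT-061 and 20.3, 22.3, 16.7 and 18.3 with vehicle. Tead3, a partner of YAP, read 44.5, 45.3, 47.4 and 46.8 FPKM with DT-061 and 27.6, 37.4, 30.7 and 37.6 with vehicle, and its 4 DT-061 values spanned a narrow range. Six5 and Thrb (a thyroid hormone receptor) had ratios of 1.47 and 1.55, which were 1.32 and 1.27 without library 3. Gata6, a regulator of vascular smooth muscle, read 36.1, 38.1, 31.9 and 36.1 FPKM with DT-061 and 24.99, 26.95, 28.9 and 25.5 with vehicle, with library 3 the lowest (named after values were seen). Of the 16 others, 8 rose and 8 fell.

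Chromatin regulators also gave 9 genes, of 21 in the table (15.2% over the table, 39.3% of the coding genes in the range). Smarcd3, a subunit of the SWI/SNF complex in muscle (BAF60c), read 40.7, 40.6, 59.7 and 38.5 FPKM with DT-061 and 23.03, 29.8, 28.9 and 30.3 with vehicle. Its exons share 48.2% of their bases with genes on the other strand, Chpf2 among them, so their reads may not be told apart. Cbx7, a Polycomb protein, read 11.01, 12.4, 21.04 and 12.7 FPKM with DT-061 and 10.9, 10.4, 9.08 and 8.11 with vehicle. Hdac5, the promoter of which is shown above, read 44.8, 42.8, 56.6 and 47.3 FPKM with DT-061 and 36.4, 35.4, 38.6 and 34.7 with vehicle. Taf1a, a factor of RNA polymerase I, had a ratio of 1.32. Smarca2, the ATPase of SWI/SNF (named after values were seen), was level across the DT-061 group at 30.3, 31.2, 31.5 and 31.3 FPKM with DT-061 and 26.8, 23.3, 28.5 and 23.04 with vehicle. Of the 12 other chromatin genes in the table, 2 rose and 10 fell.

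Zinc finger genes gave 8 members of 16 in the table (15.2% over the table, 39.3% of the coding genes in the range). Zfp707 read 13.8, 13.03, 46.6 and 12.6 FPKM with DT-061 and 10.6, 9.56, 8.26 and 10.4 with vehicle. Its ratio of 2.22 was 1.36 without library 3, and it was the only gene of the 202 whose ratio moved by over 1.5 times. Zfp580 was level across the DT-061 group at 11.1, 10.98, 11.6 and 11.2 FPKM with DT-061 and 5.16, 7.20, 7.80 and 7.20 with vehicle, a ratio of 1.64 that was 1.62 without library 3. Zmym3 and Zfp358 had ratios of 1.32 and 1.28. Of the 8 other zinc finger genes in the table, 2 rose and 3 fell.

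Ubiquitin genes gave 9 of 31 (15.2% over the table, 39.3% of the coding genes in the range). They included 3 F-box genes, whose products choose the targets of ubiquitin ligases. Fbxo10 read 5.65, 5.89, 10.5 and 5.41 FPKM with DT-061 and 3.48, 4.12, 4.74 and 4.81 with vehicle. Fbxo44 read 5.82, 5.84, 8.85 and 6.05 FPKM with DT-061 and 3.65, 4.73, 4.51 and 4.14 with vehicle. Both were highest in library 3. Fbxo6 (named after values were seen) had a ratio of 1.22. Otud1, a deubiquitinase, read 21.8, 18.7, 26.03 and 25.6 FPKM with DT-061 and 16.8, 13.1, 16.9 and 14.5 with vehicle, and Peli2, a ligase of innate immune receptors, had 1.33. Of the 22 other ubiquitin genes in the table, 21 fell.

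Vesicle and membrane trafficking gave 11 of 33 (15.2% over the table, 39.3% of the coding genes in the range), one of the longer lists. Reep2, which shapes the endoplasmic reticulum, read 8.17, 7.51, 12.8 and 7.97 FPKM with DT-061 and 3.59, 5.89, 3.71 and 6.62 with vehicle. Rtn2, a reticulon, read 10, 10.4, 20.9 and 10.5 FPKM with DT-061 and 6.35, 9.40, 6.09 and 8.44 with vehicle. Both were highest in library 3. Sorl1 read 26.97, 30.04, 35.5 and 26.99 FPKM with DT-061 and 17.7, 18.04, 19.9 and 20.98 with vehicle. Vps37b, an ESCRT-I subunit, had a ratio of 1.45, and 42.5% of its exon bases are shared with genes on the other strand, Hip1r among them. Of the 22 other trafficking genes in the table, 4 rose and 17 fell.

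Microtubule, motor and cilium genes gave 10 of 28 (15.2% over the table, 39.3% of the coding genes in the range). The rule chose the members on this contrast, so nothing is read from these list counts. Tubb4a, a beta tubulin best known from brain, read 14.3, 13.8, 36.7 and 14.2 FPKM with DT-061 and 10.3, 10.2, 9.97 and 11.1 with vehicle. The other DT-061 libraries were close to each other, and its ratio of 1.90 became 1.36. Map1b, a microtubule-associated protein, read 35.04, 30.8, 41.6 and 32.9 FPKM with DT-061 and 18.6, 25.3, 24.2 and 25.02 with vehicle, and Ttc28 had a ratio of 1.401. Bbs2, a subunit of the BBSome that carries proteins into cilia, read 5.84, 4.80, 9.80 and 5.37 FPKM with DT-061 and 4.28, 3.88, 4.78 and 3.08 with vehicle. Dctn1 and Dctn6, subunits of the dynactin complex that links dynein to its cargo, had ratios of 1.15 and 1.31. Of the 18 other genes of that list in the table, 4 rose and 10 fell.

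Enzymes of redox and detoxification gave 4 genes. Gstt1, a glutathione transferase, read 60.6, 53.5, 70.02 and 52.8 FPKM with DT-061 and 44.95, 30.5, 45.4 and 36.5 with vehicle. Maoa, which oxidises monoamines such as serotonin and noradrenaline, read 7.95, 6.68, 6.71 and 8.49 FPKM with DT-061 and 5.32, 5.11, 5.64 and 5.10 with vehicle. Cbr3, a carbonyl reductase, read 16.96, 14.8, 16.8 and 24.7 FPKM with DT-061 and 13.9, 12.98, 11.9 and 12.1 with vehicle, highest in library 4. Sult5a1, a sulfotransferase, read 14.96, 11.1, 10.8 and 14.2 FPKM with DT-061 and 8.49, 8.42, 9.90 and 6.10 with vehicle. The median of library 3 over the other DT-061 libraries was 0.881 in these 4. Of the 17 other listed redox genes in the table, 8 rose and 9 fell. In lipid handling, Osbpl3 (an oxysterol-binding protein) read 18.6, 15.2, 12.03 and 17.1 FPKM with DT-061 and 11.1, 11.7, 8.87 and 9.72 with vehicle, with library 3 the lowest. Pitpnm2 (a phosphatidylinositol transfer protein) had a ratio of 1.45 and Abcc1 (an export pump) had 1.29. Of the 25 other lipid genes in the table, 23 fell.

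**Figure D5:**
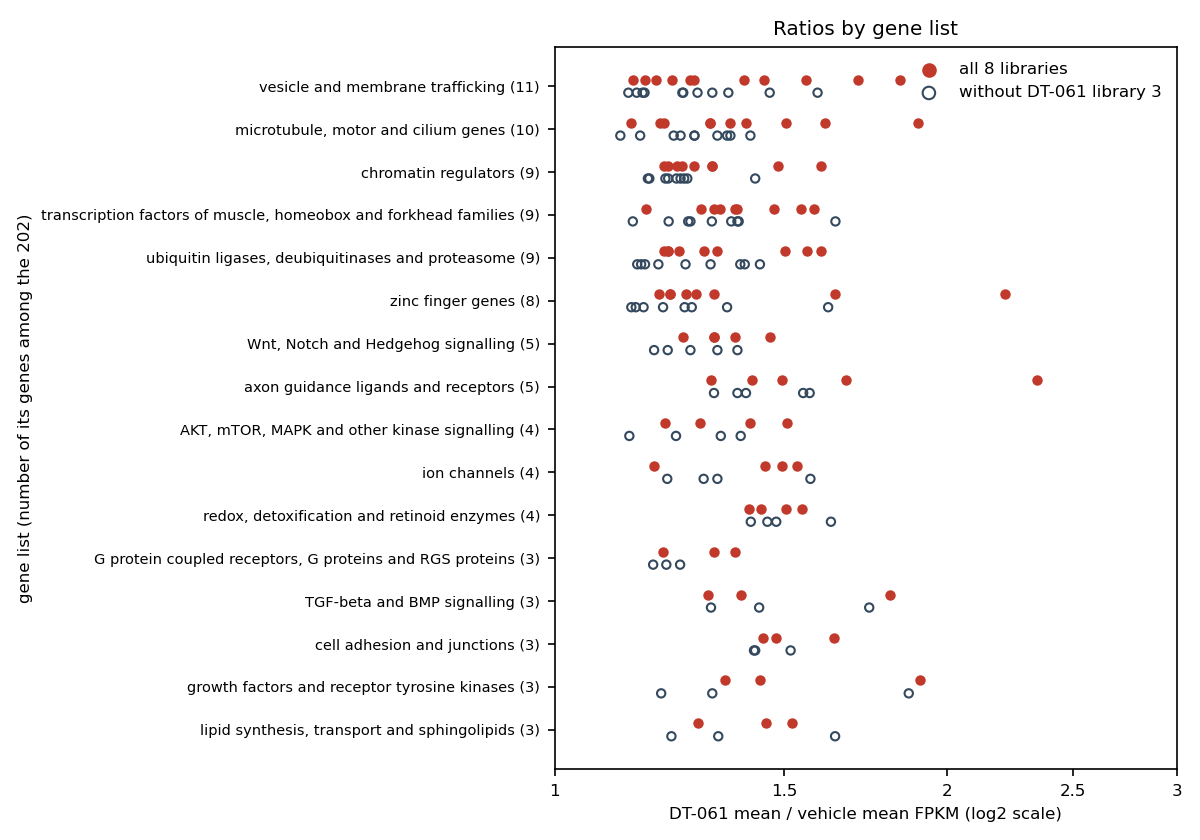
Ratio of DT-061 to vehicle mean FPKM (log2 scale) of each gene of the 202 in 16 lists that hold at least 3 of them, from all 8 libraries (filled) and without DT-061 library 3 (open); list sizes are in brackets. Among the zinc finger genes, Zfp707 falls from 2.22 to 1.36.

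Of the 202 genes, 94 were on none of the 29 pathway lists, and several with the largest ratios were among them. Ypel4 read 8.22, 7.73, 18.1 and 7.38 FPKM with DT-061 and 3.92, 5.64, 4.36 and 4.02 with vehicle, a ratio of 2.31. Atp6v0e2, a subunit of the proton pump of acidic vesicles, read 5.97, 6.25, 10.4 and 7.01 FPKM with DT-061 and 5.23, 3.34, 3.22 and 3.75 with vehicle. Grip2, a scaffold for glutamate receptors, read 27.7, 25.3, 30.04 and 27.3 FPKM with DT-061 and 16.4, 22.1, 10.3 and 14.6 with vehicle, with vehicle values more spread than those with DT-061. Cend1, known for driving neuronal precursors out of the cell cycle, read 12.5, 11.1, 10.8 and 12.9 FPKM with DT-061 and 6.60, 7.82, 6.04 and 6.58 with vehicle, and its ratio of 1.75 was 1.80 without library 3. Zfr2 had a ratio of 1.89. Nptxr, a neuronal pentraxin receptor that shares 17.2% of its exon bases with other genes, had 1.76. Palm (paralemmin, a lipid-anchored membrane protein) read 51.7, 53.6, 69.8 and 52.2 FPKM with DT-061 and 37.4, 45.3, 39.4 and 44.5 with vehicle.

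Other genes on no list were named after values were seen. Srpk3, a muscle kinase of splicing factors, had a ratio of 1.59. Perp, a target of p53 in junctions, read 49.7, 46.4, 45.3 and 42.8 FPKM with DT-061 and 24.9, 32.4, 27.9 and 31.1 with vehicle, with a margin of 1.32. Ndn (necdin) read 23.6, 23.3, 26.2 and 23.1 FPKM with DT-061 and 14.2, 11.6, 15.7 and 17.02 with vehicle. Gamt, which makes creatine, and Carns1, which makes carnosine, had ratios of 1.48 and 1.67, falling to 1.27 and 1.36 without library 3. Napepld, which makes N-acylethanolamines, and Vstm4 had 1.67 and 1.59, with 1.61 and 1.60 without it. Of 14 of the 15 largest ratios computed without library 3, 6 were also among the 15 computed with it, and Ntf3, Cend1 and Inha were the highest of those 14.

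Features of the gene models, which the rule did not use, are given as medians and shares with no test. Their median span in the genome was 30.4 kb, beside 22.7 kb for the 215 lower genes of the same range, 14.7 kb for the 86 more abundant higher genes and 17.3 kb for all 22028 coding genes. A span of at least 100 kb was found in 22.3%, 4.19%, 10.5% and 11.3% of the same sets. Median GC content of the longest transcript of each gene was 54.1%, 50.05%, 55.0% and 48.7%. On the X chromosome lay 11 of the 202 (5.45%), beside 0.930% of the lower genes, 2.33% of the more abundant ones and 4.30% of all. The 64 higher genes under 5 FPKM had a longer median span, 37.6 kb, and 37.5% of them spanned at least 100 kb. Their median GC content was 51.0%, and 4.69% lay on the X chromosome. Long genes were therefore not particular to the 202. Across the 202, the ratio had a Spearman's correlation of -0.25 with exonic length, -0.15 with mean FPKM and 0.07 with GC content. Among those 202, 6 pairs lay within 50 kb of each other. The closest were Fbxo6 and Fbxo44, 660 bases apart on the same strand of chromosome 4, and Tmem252 and Pgm5, 783 bases apart on opposite strands of chromosome 19, with ratios of 1.67 and 1.59. Exon bases were shared with another gene in 78 of the 202, to at least 10% in 27 and to at least 50% in Gm45713, Atn1, Rab2b and Hyal1, whose values are therefore uncertain. Besides Smarcd3, Vps37b and Nptxr, the genes named above that share at least 10% of their exon bases are Carns1 (45.9%), Tmem53 (10.2%), Dctn6 (11.8%) and Npr1 (11.7%).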

How the data were processed

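Poly-A RNA was sequenced in paired-end mode, per the labels' protocols. The submitters' processing notes name the mm10 build and, with no order, featureCounts 1.5.0-p3, HISAT2 2.0.5 and StringTie 1.3.3b. The deposited values are FPKM made by the authors. The sources used here give neither the strand setting nor the tool and threshold that chose the 1329 genes, so a p-value from this table is not independent evidence. Symbols were found for 1328 identifiers, and gene models came from GENCODE M21.

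Steps between low FPKM gave each library's depth (91.9% to 100% of 37 to 67 values per library came out whole within 0.03). The 202 genes were found by their rule with no test. For other genes, limma 3.58.1 (trend, robust) in R 4.3.3 was fitted on log2(FPKM + 1) over all 1329 genes with treatment as the only term and Benjamini-Hochberg adjustment at 0.05, and rose or fell is used of genes past it. The procedure was tested on simulated data.

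The members, the 29 pathway and 13 marker lists, the tests and the alternatives were chosen with earlier results of these data known. Named genes were those with the 15 largest ratios, the 8 highest means, the largest 4 ratios of each list with at least 3 members, the 3 nearest each bound, and the 3 smallest and largest margins. All further names were picked with the values in view. The alternatives tried were a 0.1 pseudocount, rescaled libraries, quantile normalization, a minimum mean of 1, limma without trend, a replicate block, left-out libraries and 2 other rules. Results for 1 gene and 1 gene list are not reported here.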

Additional observations from a re-analysis of the deposited data

Results flagged for a closer look

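In each group of 4 libraries of the named genes, the highest and lowest library were set against the others by Dixon's ratio (gap to the nearest library over the whole range). The same was done for the median level of the 202 genes in each group. Of 172 groups examined in all, 27 held a library past the critical value of the ratio, which about 1 in 20 groups pass by chance when not chosen by their values. All 27 were of named genes. These genes were chosen by the rule and many by a large ratio. Such a choice favours genes with 1 high DT-061 library, so the 1 in 20 is no yardstick here. Of the 27, 24 were in DT-061 library 3, which was the highest library in 23 of them. Genes measured in 1 library are not independent of each other.

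Palm stood at 69.8 FPKM in DT-061 library 3 and at 51.7 to 53.6 in the other DT-061 libraries. For Speg, library 3 gave 62.6 FPKM and the others 33.3 to 35.7. Smarcd3 was at 59.7 FPKM there, beside 38.5 to 40.7. Library 3 held Pnck at 57.2 FPKM, above 29.2 to 32.3 elsewhere in the group. Shisa4 stood at 54 FPKM in DT-061 library 3 and at 38.2 to 39.8 in the other DT-061 libraries. For Zfp707, library 3 gave 46.6 FPKM and the others 12.6 to 13.8. Tubb4a was at 36.7 FPKM there, beside 13.8 to 14.3. Library 3 held Grik5 at 34.5 FPKM, above 23.1 to 23.4 elsewhere in the group. Ncam1 stood at 34.2 FPKM in DT-061 library 3 and at 21.1 to 21.6 in the other DT-061 libraries. For Ttc28, library 3 gave 27.3 FPKM and the others 19.5 to 20. Six5 was at 25.9 FPKM there, beside 17.3 to 18. Library 3 held Gnao1 at 25.9 FPKM, above 16.2 to 17.6 elsewhere in the group.

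Epha1 stood at 21.6 FPKM in DT-061 library 3 and at 6.76 to 8.15 in the other DT-061 libraries. For Cbx7, library 3 gave 21 FPKM and the others 11 to 12.7. Rtn2 was at 20.9 FPKM there, beside 10 to 10.5. Library 3 held Thrb at 19.9 FPKM, above 9.81 to 11 elsewhere in the group. Ypel4 stood at 18.1 FPKM in DT-061 library 3 and at 7.38 to 8.22 in the other DT-061 libraries. For Ptprd, library 3 gave 14.2 FPKM and the others 10.2 to 10.8. Zfr2 was at 13 FPKM there, beside 6.31 to 7.12. Library 3 held Reep2 at 12.8 FPKM, above 7.51 to 8.17 elsewhere in the group. Gpr162 stood at 12.4 FPKM in DT-061 library 3 and at 9.78 to 9.98 in the other DT-061 libraries. For Fbxo10, library 3 gave 10.5 FPKM and the others 5.41 to 5.89. Fbxo44 was at 8.85 FPKM there, beside 5.82 to 6.05.

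Arhgap44 was the 1 gene with DT-061 library 3 as the lowest, at 11.1 FPKM beside 11.9 to 12.1. The remaining 3 were in other libraries. Gabra3 was at 31.9 FPKM in DT-061 library 1 and at 21.9 to 22.9 in the others. Map1b was at 18.6 FPKM in vehicle library 1, under 24.2 to 25.3 in the other vehicle libraries. Ntf3 was at 11.9 FPKM in vehicle library 3, under 13.7 to 13.9.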

How the results depend on the processing

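Over the table, limma called 404 genes higher and 864 lower with DT-061 from the values as deposited (31.9% of calls higher), and the 202 genes had a median log2 difference of 0.43. Rescaling the libraries to the same median moved the table's median by 0.69 and gave 434 higher and 299 lower (59.2% higher), with the 202 genes at 1.22. Quantile normalization moved it by 0.56 and gave 394 and 210 (65.2% higher), with 0.75. All 202 genes stayed higher without overlap under the rescaling and 186 under quantile normalization, and none was lower on the means under either. Both were fitted on these 1329 genes, of which 65.0% fell, so both raise DT-061 libraries against vehicle. A shift in favour of the 202 genes could hardly undo their separation, so these counts do not test the scaling. The replicate block gave 204 higher and 630 lower; its cause was not tested. Deviations of same-numbered libraries correlated at 0.18, -0.11, -0.05 and -0.47, and not every library correlated best with its own number. Deviations from a group's mean are tied to each other, so these values cannot decide whether same-numbered libraries were handled together. Leaving out each library in turn gave 254 to 351 higher, fewest without vehicle library 3, 652 to 881 lower, and a median of 0.34 to 0.46 for the 202. A 0.1 pseudocount, a floor of 1 on the mean FPKM and limma without trend kept all counts within 1.5 times. Bounds on the median FPKM gave 204 genes (199 shared), and a limma call in place of no overlap gave 209 (195 shared). Of 1105 values of 85 tracked genes under the alternatives, 964 moved by less than the replicate spread and 141 by more, all under the 2 rescalings, and none changed sign. The table holds only genes already called significant, FPKM is relative within a library, and 4 libraries a group limit every margin near 1.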
